A study of Homo sapiens with 72 samples.

Results

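The comparison was between A375 cells depleted of CTU2 and cells given a control siRNA, both harvested at the start of a decay time course. It used 12 of the 72 libraries of the series, chosen by title as every 0 h library of the siRNA experiment, with 6 libraries of siCTU2 cells and 6 of siGL2 cells. A375 is an established human melanoma line. siCTU2 cells had received a pool of 2 siRNAs against CTU2 and siGL2 cells a single siRNA against firefly luciferase, a gene that human cells lack, both for 42 h. Cells of each condition were then given triptolide (25 µM), a transcription inhibitor, by itself (T arm) or combined with a translation inhibitor, cycloheximide (100 µg/ml, TCHX arm), and were collected immediately. Each condition and arm held 3 replicates, so that 3 T and 3 TCHX libraries made up each group of 6. Cytoplasmic polyadenylated RNA was read from its 3′ end (QuantSeq). The groups therefore had triptolide, the transfection and the cytoplasmic fraction in common. They differed in the siRNAs, and no cells with a single CTU2 siRNA and no untransfected cells were part of this comparison.

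CTU2 is a subunit of the enzyme that thiolates the wobble uridine of the tRNAs reading AAA, GAA and CAA codons. The sulfur is delivered by the ubiquitin-like protein URM1, and the same uridine is also modified by the Elongator complex and by ALKBH8. The modification is known for helping these tRNAs to decode their codons, and its enzymes have been studied in melanoma for their part in translating growth-promoting mRNAs. An siRNA acts through its guide strand, which is held by an Argonaute protein and pairs fully with its target, but bases 2 to 8 of the guide (the seed) can also pair with other mRNAs, mostly in the 3′ UTR, as a microRNA does.

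The strands that pair with the target are shown because every later result was obtained with them. All were 19 bases long, are written 5′ to 3′ from the oligonucleotides the study lists, and have the seed in capitals.
siCTU2#1 guide: uUGGUCAUgagcuugauag
siCTU2#2 guide: aAGUCCUUcauguucacgc
siGL2 guide: uCGAAGUAuuccgcguacg
Both CTU2 guides paired with coding sequence of the CTU2 transcript in the GENCODE annotation of GRCh38 over 19 of 19 bases, siCTU2#1 at chr16:88713389-88713407 (plus strand, exon 8 of 15) and siCTU2#2 at chr16:88714907-88714925 (exon 13 of 15). The siGL2 strands matched it nowhere.

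CTU2 (chromosome 16, 88706483 to 88715396, plus strand) was examined first. It was at 1.01, 1.64 and 2.95 CPM (lowest, median and highest of 6 libraries, 11 to 28 counts) in siCTU2 cells and at 21.1, 24.7 and 29.9 CPM (183 to 372 counts) in siGL2 cells, where CPM is a gene's count relative to the total count of its library, on the usual scale. The groups did not overlap in either arm. The log2 fold change of siCTU2 over siGL2 was -3.84 (adjusted p = 9.04e-19 by edgeR, SE 0.17), a 14.3-fold decrease. The libraries held between 8098828 and 14727204 counts and had counts for 16121 to 16910 genes. Of 19 markers of blood, endothelial, epithelial and fibroblast cells, 2 (KDR and LUM) passed the filter on low counts and neither passed the test. Of 25 melanocytic lineage genes, 16 passed the filter, with SOX10, a transcription factor that defines the lineage, at 314 to 424 CPM over the 12 libraries. Pigment genes were low or absent. MLANA, TYR and TYRP1 were under the filter, with at most 8, 9 and 23 counts in a library, and PMEL was at 2.21 to 8.42 CPM.

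Of 12358 genes tested, 6680 (54.1%) changed in siCTU2 cells relative to siGL2 cells when both arms were analysed together with arm and replicate number as covariates (edgeR adjusted p under 0.05). Of these, 3332 genes (27% of those tested) were higher and 3348 (27.1%) lower in siCTU2 cells. The estimate reached 2-fold for 1177 genes (9.52%), of which 524 rose (4.24%) and 653 fell (5.28%), and it reached 4-fold for 104 genes that rose (0.842%) and 95 that fell (0.769%). Tested against a change of 1.5-fold, 1488 genes (12%) passed, with 681 higher (5.51%) and 807 lower (6.53%), and the 6 libraries of each condition did not overlap for 3529 genes (28.6%). Changes under 2-fold thus made up most of the calls. Calls also grew with the counts of a gene, since 36.5% of genes in the highest of 5 equal bins of mean CPM rose and 32.5% fell, against 17.1% and 19.8% in the lowest bin. Of the 1806 tested genes placed in pathway lists, 63.2% were called.

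The siRNA seeds were next compared with the transcripts of the changed genes. A coding transcript was found in GENCODE for 10813 of the 12358 genes (87.5%), of which 27.8% rose, 28.8% fell and 5.23% fell at least 2-fold. Genes whose 3′ UTR held ATGACCA, which pairs with the seed of siCTU2#1, were 1079 (9.98%). Among them 23.2% rose, 40.3% fell and 11.8% fell at least 2-fold, and their median log2 fold change was -0.133 below that of the other genes. The difference lay between -0.144 and -0.106 in the 6 pairs of libraries of one arm and replicate number (SD 0.012 over 3 replicates).

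The seed of siCTU2#2 gave values of the same size. AAGGACT, its pairing sequence, was in the 3′ UTR of 1392 genes (12.9%), of which 21.6% rose and 41.5% fell, with a median -0.141 below the other genes (-0.157 to -0.137 in the 6 pairs). With 2 or more copies (215 genes), 46.5% fell and 18.6% fell at least 2-fold. For siCTU2#1 the share that fell did not grow with copies, at 38.1% of the 126 genes with 2 or more, whose median was -0.117. Where both seeds had a match in the 3′ UTR (285 genes), the median was -0.228, against 0.016 for the 8627 genes with neither. A match of either seed in coding sequence went with smaller differences, of -0.062 and -0.07.

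Genes with a match to the control siRNA moved the other way. TACTTCG, which pairs with the seed of siGL2, was in 141 3′ UTRs (1.3%), and of these genes 43.3% were higher and 19.9% lower in siCTU2 cells. Their median was 0.171 above the other genes and was above in 6 of 6 pairs (0.133 to 0.195). In coding sequence (468 genes) the difference was 0.16. The passenger strands, which do not pair with CTU2, served for comparison. Their seed matches in 3′ UTRs went with differences of -0.023 for siCTU2#1 (1120 genes) and -0.027 for siCTU2#2 (359 genes). For siCTU2#1 the difference was small but below 0 in 6 of 6 pairs (-0.05 to -0.03), and for siCTU2#2 in 4 (-0.063 to 0.002). For the passenger of siGL2 the difference was 0.131, over 17 genes (0.066 to 0.296 in the 6 pairs). All matches were to these letters in the mRNA strand alone. They are descriptions of the sequence and not sites of binding, and genes are not replicates, so that no p is given.

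**Figure D1:**
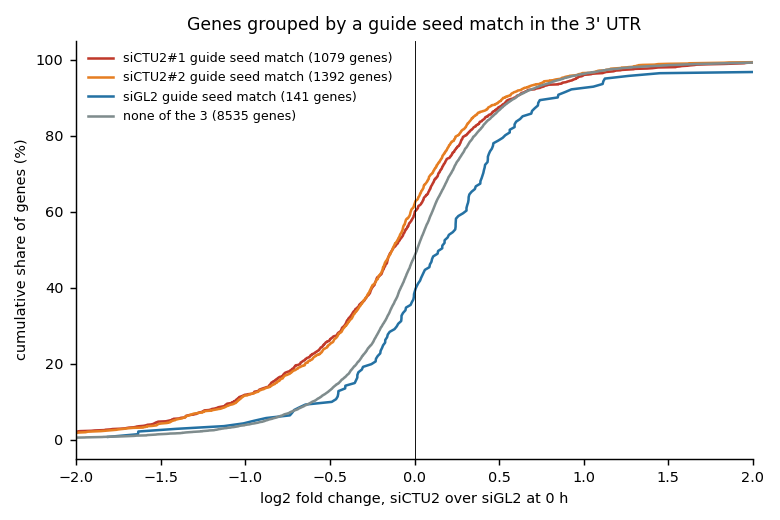
Cumulative share of genes (percent) against the log2 fold change of siCTU2 over siGL2 for genes with a 3′ UTR match to the seed of siCTU2#1 (red, 1079 genes), siCTU2#2 (orange, 1392), siGL2 (blue, 141) or none of them (grey, 8535). The red and orange curves lie to the left of the grey curve and the blue curve to its right.

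The share of genes with a seed match grew with the size of the decrease. A match to either siCTU2 seed was in the 3′ UTR of 20.2% of all genes with a transcript, of 25.2% of those that fell less than 2-fold, of 41.6% of the 486 that fell 2- to 4-fold and of 46.2% of the 80 that fell more. It was in 17.3% of genes that did not pass the test and in 20.7% and 19.5% of those that rose 2- to 4-fold and more. Decreased genes also had longer 3′ UTRs, with a median of 1814 bases for those that fell at least 4-fold against 1231 for all, and the part of length in these shares was not tested. The control seed was found anywhere in the transcript in 15.9% of the 82 genes that rose at least 4-fold, against 5.66% of all genes. Counted in the same way, anywhere in the transcript, a siCTU2 seed match was in 67.5% of the 80 genes that fell at least 4-fold and in 44.4% of all genes.

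Near-complete pairing with a guide was also searched for, over all windows of 19 bases. Apart from CTU2, 11 genes paired with at least 16 bases of the siCTU2#1 guide, of which 6 were lower and 0 higher. For siCTU2#2 there were 8 such genes, of which 4 were lower and 1 higher, and for siGL2 there were 0. Of all genes tested, 27.1% were lower and 27% higher. The windows of 4 genes that fell, picked after their values were seen, are shown. They had 16 to 18 paired bases, and other genes with 16 did not change. Capitals mark bases that pair with the guide, the windows are read 5′ to 3′ on the mRNA, and guide positions are counted from its 5′ end.
SEPTIN11 with siCTU2#2: GCGTGAACATGgAGGACTT
DTX3L with siCTU2#2: GCaTcAACATGAAGGACaT
ANXA5 with siCTU2#1: CTAgCAtGCTCATGACCAA
AGO1 with siCTU2#1: CaATCAAGCTCcTGgCCAA
The SEPTIN11 window (chr4:77020553-77020571, plus strand, coding exon 9 of 12) left only guide position 8 unpaired. The DTX3L window (chr3:122566019-122566037, plus strand, coding exon 2 of 5) left positions 2, 15 and 17 unpaired. The ANXA5 window lay in the 3′ UTR (chr4:121668339-121668357, minus strand, exon 13 of 13), with positions 13 and 16 unpaired. The AGO1 window (chr1:35888505-35888523, plus strand, coding exon 2 of 19) left positions 5, 8 and 18 unpaired.

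SEPTIN11, a septin of the cytoskeleton, was at 15.2, 20.9 and 29.0 CPM in siCTU2 cells and at 181, 194 and 214 CPM in siGL2 cells. On the log2 scale it fell by 3.19 (adjusted p = 2.5e-17 by edgeR, SE 0.09), close to that of CTU2. ANXA5, a phospholipid-binding annexin, fell from a median of 346 CPM (319 to 382) to 98.0 CPM (86.7 to 120), by 1.80 on the log2 scale. AGO1, an Argonaute that itself carries small RNAs, fell from 48.4 CPM (46.2 to 50.9) to 13.8 CPM (11.2 to 16.1), by 1.81. DTX3L, a ubiquitin ligase induced by interferon, fell from 89.3 CPM (73.4 to 102) to 33.6 CPM (31.6 to 38.6), by 1.38. None of these genes overlapped between the conditions. Smaller decreases were measured for LONP1 (-0.74), PHYH (-0.75), SLC25A23 (-0.56) and NUMB (-0.46) with 16 paired bases. Genes with as many paired bases did not all move. Among those that did not pass the test were RPS24 (0.04), AKT1 (-0.07), ARL6IP4 (0.10), IDH3A (-0.09) and KLHL21 (-0.11).

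The naming rule took 19 genes for falls in log2 fold change or in CPM, beside CTU2 and 2 genes known only by a LOC number. A siCTU2 seed match was somewhere in the transcript of 10 (52.6%) and absent from 9. The share was 44.4% for all genes and 67.5% for those that fell at least 4-fold. Genes taken for CPM alone fell less, with log2 fold changes from -2.06 (CALR) to -0.50 (RPS12). Of these, SNRPB2 and RPS12 held a match and CALR, VGF, SERPINA3, RPS20 and MT2A held none. SEPTIN11, whose window with siCTU2#2 leaves a seed base unpaired, was among the 9. IDH1, the cytosolic isocitrate dehydrogenase, held 3 matches to siCTU2#1, 1 of them in the 3′ UTR, and 1 to siCTU2#2, and was lower by 3.85 on the log2 scale. HMGA2, a chromatin architectural protein, held none, and fell from 1217 CPM (1184 to 1297) to 104 CPM (97.9 to 114), with a log2 fold change of -3.54 (adjusted p = 1.21e-34 by edgeR, SE 0.04). The groups were far apart in both cases, with and without a match. PRELID1, a mitochondrial lipid transfer protein, and CALR, the chaperone calreticulin, also lacked a match and fell by 3.35 and 2.06. AIFM2, which protects membranes from lipid peroxidation, fell by 3.33, from 58.4 CPM (53.9 to 63.0) to 5.35 CPM (4.87 to 7.51), and held a match to siCTU2#2 in a window of 15 paired bases.

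Codon content was compared because of the role of CTU2. Genes with an intact coding sequence (10728) were put in 5 bins by the share of AAA, GAA and CAA among their codons, with a median share of 1.89% in the lowest bin and 13% in the highest. The median log2 fold changes were 0.024, -0.021, -0.021, -0.002 and -0.008 from the lowest to the highest bin. The highest minus the lowest was -0.032, and it ranged from -0.105 to 0.042 over the 6 pairs (SD 0.0358 over 3 replicates), so that it was no larger than the spread. The share of genes that fell was 26.7% in the lowest and 27.7% in the highest bin. For the synonymous AAG, GAG and CAG codons the same difference was -0.011. By 3′ UTR length the medians went from 0.002 in the shortest to -0.041 in the longest bin, a difference of -0.043 that lay between -0.058 and -0.021 in the 6 pairs. These are RNA levels, and translation was not measured in these libraries.

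**Figure D2:**
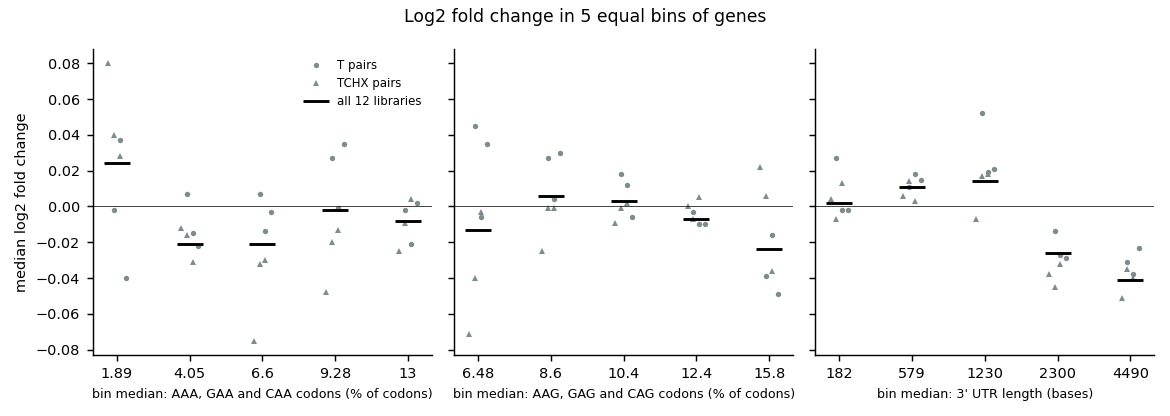
Median log2 fold change (siCTU2 over siGL2) in 5 equal bins of genes by the share of AAA, GAA and CAA codons, of AAG, GAG and CAG codons, and by 3′ UTR length, each labelled with the bin median. Bars are the estimates from all 12 libraries, and points are the 3 T pairs (circles) and 3 TCHX pairs (triangles), which lie on both sides of 0 in the codon bins and below 0 in both bins of long 3′ UTRs.

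In 10 complexes or groups chosen after the values were seen, the lowest member was set beside the rest. CCT3, a subunit of the TRiC chaperonin that folds actin and tubulin, was at 37.0, 45 and 46.4 CPM in siCTU2 cells against 543, 550 and 562 CPM in siGL2 cells. On the log2 scale it fell by 3.65 (SE 0.05), while those of the 6 other subunits lay between -0.06 and 0.03. ATP6V1A, the catalytic subunit of the proton pump of lysosomes, fell from 146 CPM (136 to 155) to 22.5 CPM (17.8 to 27.4), by 2.70, and the 14 other subunits lay between -0.28 and 0.31. The same held in respiratory complex IV, where COX4I1 fell by 1.83 and 8 others lay between -0.09 and 0.15. In complex I, NDUFAB1, an acyl carrier protein, fell by 1.82 while 31 others lay between -0.73 and 0.38.

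Members of the replication machinery were among them. GINS1, part of the replicative helicase, fell from 42.1 CPM (35.9 to 50.1) to 8.31 CPM (4.06 to 10.9), by 2.39, with the 11 other helicase members between -0.48 and 0.12. Among 21 polymerase and clamp genes 3 fell at least 2-fold. RPA2 and RPA3, of the complex that coats single-stranded DNA, fell by 2.10 and 1.39, and RFC5, of the clamp loader, by 1.19. In contrast RPA1, the large subunit of the complex with RPA2 and RPA3, rose by 0.94, from 53 CPM (43.9 to 58.1) to 101 CPM (90.6 to 105). The origin recognition subunit ORC3 fell by 1.78. TMED10, a cargo receptor of the early secretory pathway, fell from 334 CPM (283 to 358) to 53.2 CPM (44.4 to 58.2), by 2.64, with 29 other coat and cargo genes between -0.38 and 0.64. RPS20, a protein of the small ribosomal subunit, fell by 1.06, from 3647 to 1764 CPM in the median, while 27 others lay between -0.50 and 0.95. Ribosomal protein genes have near-identical processed copies, and how reads were divided among them is uncertain.

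**Figure D3:**
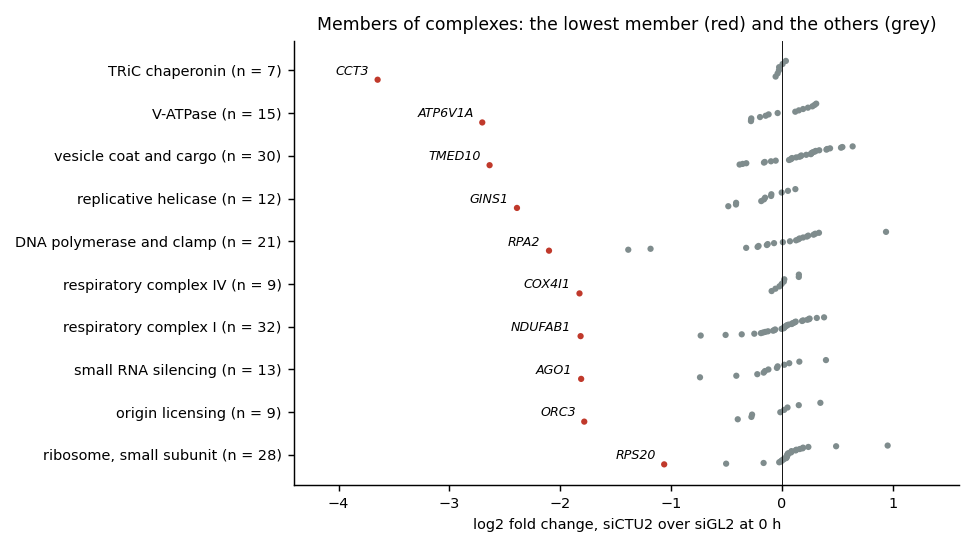
Log2 fold changes (siCTU2 over siGL2) of the members of 10 complexes or groups, with the lowest member in red and named, and the others in grey. The lowest members lie between -3.65 (CCT3) and -1.06 (RPS20), and apart from RPA3 and RFC5 the others lie between -0.74 and 0.95.

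The lists of genes described next were chosen with earlier results of these data known, and are given by their counts and medians beside those of all genes (27% higher, 27.1% lower, median 0). Members without a seed match are those with none of the 3 guide seeds in the transcript. Among all genes, 5735 had none, of which 30.1% were higher and 23.8% lower (median 0.03). Leaving out matched members thus raised the median of all genes too. Among the enzymes that modify the wobble uridine, 5 of 13 tested members rose and 5 fell, CTU2 included. CTU1, the catalytic partner of CTU2, rose from 15.8 CPM (14.1 to 17.1) to 25.8 CPM (23.4 to 28.7), with a log2 fold change of 0.74 (adjusted p = 1.51e-07 by edgeR, SE 0.10). URM1, the sulfur carrier, fell from 172 CPM (168 to 187) to 103 CPM (90.2 to 107), by 0.77. ALKBH8, the tRNA methyltransferase, fell by 0.57. NFS1, the desulfurase that supplies the sulfur, rose by 0.40. The conditions did not overlap for any of these 4 genes. A siCTU2 seed match was in the transcript of 38.5% of the list and in no 3′ UTR.

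Targets of NRF2, the transcription factor that answers oxidative stress, were mostly higher. Of 34 tested genes 18 rose and 6 fell, and their median was 0.178 (0.25 for the 18 without a match to any of the 3 guide seeds). HMOX1 (chromosome 22, 35380361 to 35394214, plus strand), which degrades heme, rose from 19.3 CPM (15.1 to 22.7) to 186 CPM (144 to 211), with a log2 fold change of 3.23 (adjusted p = 2.1e-25 by edgeR, SE 0.07). SLC7A11 (chromosome 4, 138164097 to 138242349, minus strand), the cystine importer, rose from 63.5 CPM (56.9 to 72.8) to 431 CPM (377 to 479), by 2.75 (adjusted p = 1.09e-25 by edgeR). The lowest siCTU2 library was far above the highest siGL2 library for both genes.

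Other members of the list rose less or fell. NQO1, a quinone reductase, rose from 1061 CPM (913 to 1086) to 1862 CPM (1464 to 2048), by 0.81, and TXNRD1, the thioredoxin reductase, by 0.52. The glutathione synthesis genes split, with GCLM higher by 0.23 and GCLC lower by 0.35, as did the ferritin chains, with FTH1 higher by 0.49 and FTL lower by 0.39. GCLM and FTH1 overlapped between conditions. The members that restrain the pathway were lower. BACH1, a repressor of HMOX1, fell from 34.2 CPM (29.5 to 40.3) to 17.5 CPM (16.1 to 20.6), by 0.95, and KEAP1, the adaptor that marks NRF2 for degradation, fell from 106 CPM (98.7 to 113) to 76.3 CPM (66.4 to 82.4), by 0.49. The BACH1 transcript held 3 matches to the siCTU2#1 seed, 1 of them in the 3′ UTR, and 1 to that of siCTU2#2. KEAP1 held 1 match to each, both in coding sequence, with 14 of 19 bases paired around the first. A siCTU2 seed match was in 44.4% of all transcripts. At least 14 bases paired with siCTU2#1 in 623 genes, of which 29.4% fell (median -0.018). Where the paired bases included the seed (63 genes), 42.9% fell (median -0.185). The part of these matches in the changes was not tested.

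Genes activated by p53, the tumour suppressor that halts the cell cycle, rose in 21 of 28 cases and fell in 1, with a median of 0.424, both with and without seed-matched members. CDKN1A (chromosome 6, 36676460 to 36687337, plus strand), an inhibitor of cyclin-dependent kinases, rose from 49.0 CPM (35.9 to 54.9) to 273 CPM (240 to 278), with a log2 fold change of 2.50 (adjusted p = 4.13e-16 by edgeR, SE 0.08). BTG2, an antiproliferative adaptor of deadenylation, rose by 2.06 from a low level, 2.48 CPM in the median. PLK2, a kinase, and FAS, a death receptor, rose by 1.49 and 1.04. BAX, which permeabilizes mitochondria, was at 0.42, higher in 5 of 6 pairs, and overlapped between conditions. It did not pass the test in the T arm alone, where its log2 fold change was 0.0995 (adjusted p = 0.564 by edgeR), or without replicate 2 (adjusted p = 0.0961 by edgeR). MDM2, the p53-induced ligase that degrades p53, was the member that fell, from 104 CPM (89.5 to 120) to 74.4 CPM (69.6 to 75.2), by 0.52. Among regulators of G1/S, 10 of 21 rose, including the inhibitor CDKN1B (1.11) and CCND1 (1.07), which encodes cyclin D1, and 3 fell.

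**Figure D4:**
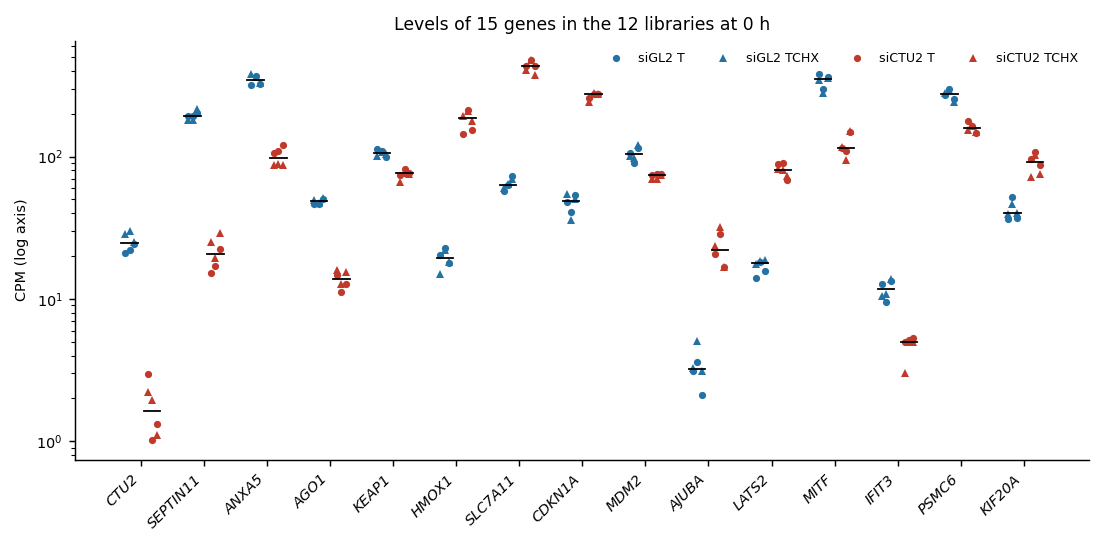
CPM (log axis) of 15 genes in each of the 12 libraries, with siGL2 in blue, siCTU2 in red, T as circles and TCHX as triangles, and bars at the medians. The colours do not overlap for any of the 15 genes, with the narrowest gap for MDM2 and KEAP1 and the widest for CTU2.

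Mitotic genes were also higher, in 48 of 73 cases against 9 lower, with a median of 0.291 (0.309 for the 40 without a seed match, of which 30 rose). KIF20A, a kinesin of the dividing cell, rose from 39.9 CPM (36.5 to 51.9) to 91.9 CPM (72.4 to 108), by 1.10 (adjusted p = 1.91e-15 by edgeR, SE 0.07). NUSAP1, which bundles spindle microtubules, rose by 0.84, the mitotic kinase PLK1 by 0.71, the proliferation marker MKI67 by 0.64 and the kinase CDK1 by 0.56. Spindle and kinetochore genes rose in 26 of 38 cases. CCNB1, the mitotic cyclin, was at -0.21 and overlapped between conditions, and its call was lost without the replicate term (adjusted p = 0.295 by edgeR). In DNA replication 15 of 48 genes rose and 16 fell, and in DNA repair 26 of 81 rose and 19 fell, with medians of 0.002 and -0.001. Without a seed match, 12 of 22 replication genes rose and 6 fell, and 17 of 35 repair genes rose and 5 fell. BRCA1, of homologous recombination, fell from 94.0 CPM (85.2 to 105) to 49.8 CPM (45.4 to 51.3), by 0.92, the largest fall of that list.

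Targets of YAP and TEAD, the transcription factors restrained by Hippo signalling, had the highest median of the lists, 0.628, with 22 of 30 higher and 4 lower. Of the 13 members without a seed match, 12 were higher and 1 lower (median 0.736). AJUBA, an adaptor that binds the Hippo kinases, rose from 3.21 CPM (2.1 to 5.08) to 22.1 CPM (16.6 to 32.1), with a log2 fold change of 2.75 (adjusted p = 5.47e-18 by edgeR, SE 0.13). LATS2, a Hippo kinase, rose from 17.8 CPM (14.1 to 18.8) to 81.1 CPM (68.4 to 89.7), by 2.22 (adjusted p = 3.92e-21 by edgeR). The conditions were apart for both genes. ANKRD1 and the matricellular gene CCN1 rose by 1.87 and 1.75, and the transcription factor TEAD2 by 1.31. The kinase NUAK2 rose by 2.10 from a low level, 0.35 to 2.53 CPM in siGL2 cells. CCN2, the best known target beside CCN1, was at 0.41, higher in 5 of 6 pairs, and overlapped, and its call was lost without the replicate term (adjusted p = 0.125 by edgeR).

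Adhesion and matrix genes moved in both directions. Of 30 integrin and focal adhesion genes 16 rose and 6 fell. ITGB3, the beta 3 integrin, fell from 475 CPM (464 to 603) to 126 CPM (114 to 169), by 1.91 (adjusted p = 8.41e-27 by edgeR, SE 0.04), while ITGB1 rose by 0.54 and the adaptor PXN by 0.87. Of 50 extracellular matrix genes 20 rose and 13 fell (median 0.101), but of the 20 without a seed match 6 rose and 9 fell (median -0.108). FN1, fibronectin, rose from 166 CPM (135 to 187) to 444 CPM (397 to 616), by 1.58, and THBS1, thrombospondin, by 1.5. PLAUR, the urokinase receptor, rose by 1.77 and the collagen COL12A1 by 2.36 from 1.12 CPM in the median. Among cytoskeletal genes 21 of 44 rose and 12 fell, with the actin-binding peptide TMSB4X higher by 1.92.

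The melanocytic lineage genes, which mark the pigment cell state of melanoma, fell in 10 of 16 tested cases and rose in 4, with a median of -0.41. For the 11 without a seed match the median was -0.173. MITF (chromosome 3, 69739456 to 69968336, plus strand), the master transcription factor of the lineage, fell from 351 CPM (279 to 378) to 115 CPM (95.0 to 151), with a log2 fold change of -1.46 (adjusted p = 2.17e-21 by edgeR, SE 0.05). SLC24A5, an ion exchanger of melanosomes, fell from 31.7 CPM (24.4 to 38.5) to 7.54 CPM (6.09 to 11.7), by 1.94. Neither overlapped between conditions. PMEL, which forms the melanosome fibrils, was at -0.58, lower in 5 of 6 pairs, and overlapped. Its adjusted p of 0.0277 (edgeR) rose to 0.0674 without the replicate term and to between 0.0554 and 0.112 without siCTU2 T replicate 2 or 3, siCTU2 TCHX replicate 1 or 3, siGL2 T replicate 2 or siGL2 TCHX replicate 3. It was 0.263 in T alone, 0.0892 in TCHX alone, 0.108 without replicate 2 and 0.302 without replicate 3. DCT, a melanin enzyme, and SOX10 were at 0.86 and 0.17, higher in 6 of 6 pairs, and the call of DCT was lost without the replicate term (adjusted p = 0.0931 by edgeR).

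Markers of the dedifferentiated melanoma state rose in 12 of 25 cases and fell in 7, while of the 10 without a seed match 4 rose and 4 fell. CAV1, caveolin, rose from 101 CPM (97.5 to 127) to 522 CPM (440 to 619), by 2.29 (adjusted p = 9.9e-28 by edgeR, SE 0.05), and the receptor kinase AXL from 28.4 CPM (25.1 to 41.9) to 60.1 CPM (47.0 to 83.1), by 1.02. SNAI2, a transcription factor of the neural crest, fell by 1.45. Of 52 epithelial and keratinocyte genes only 13 passed the filter, 6 of them higher and 2 lower, with a median of 0.599 (0.221, 0.351 and 0.533 in replicates 1, 2 and 3).

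Genes read as output of the ERK pathway, which is driven by mutant BRAF in this line, did not move as a block, with 17 of 40 higher and 14 lower (median 0.087). Of the 15 without a seed match, however, 8 rose and 3 fell (median 0.268). The feedback inhibitors SPRY4 and SPRY1 fell by 1.46 and 1.44 and the transcription factor ETV5 by 1.71, from 175 CPM (166 to 198) to 54.2 CPM (45.8 to 64.8). DUSP6, the ERK phosphatase, rose by 0.36, and EPHA4, a receptor kinase, by 2.77 from 2.80 CPM in the median. MYC was at 3.75, 5.00 and 7.17 CPM in siCTU2 cells and at 9.51, 12.3 and 17.8 CPM in siGL2 cells, and fell by 1.33. A match to a siCTU2 seed was in the 3′ UTR of 42.5% of this list, against 20.2% of all genes.

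Immediate early genes, which answer signals within minutes, rose in 17 of 32 cases and fell in 7 (median 0.318). JUN rose from 22.2 CPM (19.1 to 34.2) to 82.6 CPM (62.8 to 87.0), by 1.62 (adjusted p = 6.48e-15 by edgeR, SE 0.09). EGR1 rose by 1.28, ATF3 by 1.30 and KLF4 by 1.76, the last from 2.35 CPM in the median. Of the 17 members without a seed match 11 rose and 1 fell. In both conditions these unstable mRNAs were sampled right after triptolide was added.

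Proteasome genes were mostly lower, with 30 of 39 subunit and assembly genes decreased and 2 increased (median -0.267, and the same for the 23 without a seed match, of which 17 fell). In the catalytic core 13 of 14 genes fell. PSMC6, an ATPase of the cap, fell from 275 CPM (242 to 299) to 158 CPM (147 to 177), by 0.78 (adjusted p = 5.79e-16 by edgeR, SE 0.04). PSMC3, another ATPase, fell by 0.69, PSMD6 of the lid by 0.64 and PSMB2 of the core by 0.54. PSMD3, of the lid, was the subunit that rose, from 282 CPM (260 to 311) to 372 CPM (326 to 460), by 0.45. The lowest log2 fold change of the list was -0.776 (PSMC6), and the highest was 0.446 (PSMD3).

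Of 30 tested interferon-stimulated genes, 14 were lower and 1 higher in siCTU2 cells than in siGL2 cells (median -0.284). They belong to the antiviral response that long double-stranded RNA can set off. Without seed-matched members, 6 of 13 fell and 1 rose. Many members, such as IFIT1, RSAD2, IFI27 and IFNB1, were under the filter. Both groups were transfected, so a response to transfection itself was not tested. IFIT3 (chromosome 10, 89327307 to 89377473, plus strand) fell from 11.8 CPM (9.49 to 13.9) to 4.98 CPM (3.04 to 5.29), by 1.32 (adjusted p = 1.42e-08 by edgeR, SE 0.16). ISG20, an exonuclease, fell by 1.34, IRF1, a transcription factor of the response, by 1.00 and STAT2, its signal transducer, by 0.48. ISG15, a ubiquitin-like modifier, was at -0.33, lower in 6 of 6 pairs, and overlapped between conditions. In the T arm alone ISG15 was at -0.199 (adjusted p = 0.304 by edgeR) and STAT2 had adjusted p = 0.0602. Without replicate 2, STAT2 and ISG15 had adjusted p = 0.0521 and 0.0649 by edgeR, and without replicate 1 ISG15 had 0.0843.

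Of 45 genes of mTORC1, the kinase complex that matches growth to nutrients, 7 rose and 20 fell (median -0.16). LAMTOR2, which anchors the complex to lysosomes, fell from 53.5 CPM (47.4 to 59.2) to 13.6 CPM (12.6 to 16), by 1.93 (adjusted p = 2.68e-19 by edgeR, SE 0.08). The amino acid sensing GTPase RRAGC fell by 1.00, the activator RHEB by 0.84 and MTOR itself by 0.56, from 48.1 CPM (41 to 51.3) to 32.5 CPM (27.9 to 36.7). Mitochondrial protein import fell in 16 of 27 cases and rose in 5 (median -0.215). In ribosome biogenesis 21 of 57 genes fell and 5 rose, with a median near that of all genes, -0.004, and the helicase DDX21 lower by 1.55. Cytosolic ribosomal protein genes rose in 25 of 73 cases and fell in 13.

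Among signalling lists, Notch had the lowest median, -0.418, over 10 tested genes, of which 5 fell and 2 rose. NOTCH2, a receptor, fell from 60.6 CPM (57.5 to 65.3) to 22.1 CPM (18.2 to 26.7), by 1.45 (adjusted p = 1.83e-16 by edgeR, SE 0.08), and the target HEY2 by 1.49, whereas the receptor NOTCH1 rose by 0.95. In TGF-beta signalling 14 of 41 rose and 13 fell. The BMP targets ID1 (-1.73) and ID4 (-2.16) fell, ID1 from 117 CPM (116 to 121) to 34.5 CPM (32.2 to 41). The receptor TGFBR2 fell by 1.43 while TGFBR1 and SMAD3 rose by 1.09 and 1.05. In Wnt signalling 13 of 36 rose and 14 fell (median -0.102), but of the 15 without a seed match 8 rose and 5 fell (median 0.309). The secreted inhibitor DKK1 was higher by 5.34, from 0.988 to 2.07 CPM in siGL2 cells to 46.7 to 78.5 CPM in siCTU2 cells. The receptor FZD2 was higher by 1.6 and the receptor kinase ROR1 lower by 1.29.

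The chaperones of the endoplasmic reticulum did not move together, with 10 of 27 genes of the unfolded protein response higher and 8 lower (median 0.032). CALR fell from 1003 CPM (928 to 1039) to 236 CPM (226 to 261), by 2.06, and its partner PDIA3, a disulfide isomerase, from 225 CPM (181 to 239) to 67.7 CPM (49.5 to 73.2), by 1.78. XBP1, a transcription factor of the response, rose by 0.45. In the small RNA pathway 5 of 13 genes fell and 1 rose. AGO2, the Argonaute that cleaves targets, rose from 114 CPM (98.3 to 119) to 145 CPM (133 to 159), by 0.40, opposite to AGO1, and DROSHA, the nuclear microRNA processor, fell by 0.74. A siCTU2 seed match was found in 84.6% of this list, against 44.4% of all genes.

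Gene families were also scanned by name, for the 144 symbol stems with at least 10 tested genes. The lowest median was that of the septins (-0.667), of which 6 of 10 fell and 2 rose. SEPTIN7, the core septin, fell from 167 CPM (158 to 175) to 43.6 CPM (34.5 to 45.5), by 1.98, beside SEPTIN11. The COQ genes of ubiquinone synthesis followed (-0.402, 6 of 11 lower, 1 higher, COQ9 by -1.04), then the phosphodiesterases (-0.342, 4 of 11 in each direction, PDE3B by -1.95) and the PSMD subunits of the proteasome (-0.249, 9 of 14 lower). The highest median was that of the histone deacetylases (0.413, 7 of 11 higher, 1 lower), led by HDAC9, which rose from 7.10 CPM (5.43 to 9.38) to 41.7 CPM (34.0 to 51.4), by 2.52 (adjusted p = 9.37e-20 by edgeR, SE 0.10).

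The semaphorins were next (0.411, 7 of 14 higher, 2 lower, SEMA3C by 1.77), then the histones (0.374, 16 of 31 higher, 2 lower) and the RGS genes (0.338, 3 of 10 higher, 4 lower), where the median and the calls differed in direction. Among the histones H2BC21 rose from 1.15 CPM (0.339 to 2.85) to 9.97 CPM (7.38 to 11.7), by 2.93, and H3-3B, the replication-independent histone with a regular poly(A) tail, from 1281 CPM (1128 to 1303) to 1947 CPM (1829 to 2072), by 0.65. The transcripts that rose most in CPM by the rule were MALAT1, a nuclear long non-coding RNA (log2 fold change 0.57, overlapping), RPS27A (0.24, overlapping), PABPC1, the poly(A)-binding protein (0.58), FTH1, THBS1, NQO1, RPL27A (0.35) and H3-3B.

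The response was compared between the arms, which differed in cycloheximide alone. The effect of the CTU2 siRNAs differed between TCHX and T for 121 of 12358 genes (0.979%, edgeR adjusted p under 0.05), of which 55 had the higher log2 fold change in TCHX and 66 in T, and 1528 genes had an unadjusted p under 0.05. The smallest adjusted p was 0.00143. The count was 0 by edgeR without the replicate term (928 genes at an unadjusted p under 0.05) and 207 by DESeq2. It also moved with single libraries, to 13, 237 and 74 without siCTU2 T replicate 1, 2 and 3, to 25 without siCTU2 TCHX replicate 1, to 26 and 15 without siGL2 T replicate 1 and 3, and to 8 and 69 without siGL2 TCHX replicate 1 and 2. In each arm alone, 5100 (T) and 5457 (TCHX) genes passed the test, of which 4773 and 5064 were among the 6680 and in the same direction.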

How the data were processed

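Libraries were prepared with QuantSeq 3′ kits from cytoplasmic RNA, so that most reads lie near the poly(A) site. The authors trimmed reads with fastp (0.20.1), aligned them with HISAT2 (2.2.1) and counted them per gene with htseq-count (0.13.5), and deposited raw counts for 44659 gene names, 22231 of which had 0 counts in the 12 libraries. The strand setting of the counting was not given in the sources used here, so overlapping and antisense genes could not be told apart. Reads of near-identical copies, such as processed pseudogenes of ribosomal protein and ferritin genes, may be divided among them, and 5088 names that mark extra copies held at most 0.0585% of a library.

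The 12 libraries were grouped by their titles. Genes were filtered with filterByExpr, scaled by TMM and tested with the quasi-likelihood F-test of edgeR (4.0.16 in R 4.3.3) with terms for condition, arm and replicate number, and p-values were adjusted by the Benjamini-Hochberg method over all genes tested, with a threshold of 0.05. The interaction of condition and arm was tested in the same design. SE was derived from the test, as the absolute log2 fold change divided by the square root of F. With 0 spike-in names in the table, changes are relative to the other genes. CPM used library totals, SD was taken over the 3 replicates after averaging the arms, and pairs are siCTU2 and siGL2 libraries of one arm and replicate number. Same-numbered libraries deviated together from their group means (r from 0.125 to 0.376 between conditions and from 0.202 to 0.402 between arms, over 7232 genes), so the number was taken as pairing the samples, as the titles number them. The labels do not say whether replicates, or the T and TCHX libraries of one number, came from separate cultures, so p-values measure the spread between these samples, which may be technical.

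The members of the comparison and the gene lists were chosen with earlier results of these data known. Genes were named by rule as the 15 largest rises and falls in log2 fold change and the 8 largest in mean CPM, averaging 50 counts or more in the higher condition and with one sign in all 6 pairs, and up to 3 rises and 3 falls per list. Other genes were named for their role or their pairing with an siRNA after their values were seen, and some genes are not reported here. Seeds, longest pairings and codons were read from the GENCODE transcript with the longest coding sequence of each gene (GRCh38). On simulated counts for this comparison (12241 genes), 42 of 50 genes changed 1.5-fold, 48 of 50 changed 2-fold and 49 of 50 changed 4-fold were recovered, with 16 false calls. The simulated libraries were independent, with no replicate or culture effect and far fewer changed genes than were called here. The false calls therefore do not give the error rate of the real comparison. Alternatives were no replicate term, each arm alone, arms summed, limma-voom (limma 3.58.1) with a culture term, DESeq2 (1.42.0), other scalings and filters, a 1.5-fold test and leaving out each library or replicate. The correlation estimated for the culture term was negative (-0.142), so that fit does not guard against libraries that share a culture. Reads carried no molecular identifiers, so counting error may be understated.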

Additional observations from a re-analysis of the deposited data

Results flagged for a closer look

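Single libraries stood apart from the other 5 of their condition by Dixon's criterion in 13 of 262 groups of 6 libraries checked (4.96%), a criterion that chance meets in about 1 of 20 groups. In siCTU2 cells, URM1 was at 90.2 CPM in TCHX replicate 2 (101 to 107 in the others), DTX3L at 38.6 CPM in TCHX replicate 3, LONP1 at 62.7 CPM in T replicate 3 and CCT3 at 37.0 CPM in TCHX replicate 2. PSMB2 was at 302 CPM in T replicate 1, IFIT3 at 3.04 CPM in TCHX replicate 1, LAMTOR2 at 16 CPM in T replicate 3 and SEPTIN7 at 34.5 CPM in T replicate 2. In siGL2 cells, T replicate 1 was apart for URM1 (187 CPM), PRELID1 (496 CPM) and ID1 (121 CPM), and TCHX replicate 1 for PDIA3 (181 CPM) and RPS27A (8590 CPM). None of these libraries reached the range of the other condition except that of RPS27A.

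The effect of the CTU2 siRNAs differed between arms for 7 of the named genes by the interaction test of edgeR, given here as the log2 fold change in TCHX minus that in T. ANXA5 (-0.44, adjusted p = 0.0129) fell in all 6 pairs, by -1.57, -1.75 and -1.42 in T and by -2.12, -2.01 and -1.91 in TCHX. The difference was -0.38 for TXNRD1 and 0.38 for PSMD3 (both adjusted p = 0.0195), and 0.40 for PDIA3 (0.0479). It was 0.32 for MKI67 (0.0382), 0.34 for MALAT1 (0.0118) and 0.28 for PABPC1 (0.0214). All 7 lost the call without the replicate term, where 0 genes passed in edgeR, 928 had an unadjusted p under 0.05, and no other tool was run without that term.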

How the results depend on the processing

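The number of genes that passed the test (6680) stayed within 1.5 times under each alternative except the test against a 1.5-fold change, which 1488 genes passed. It was 6200 without the replicate block that pairs the libraries, 5100 in T and 5457 in TCHX alone, 5402 to 6505 when a replicate or library was left out, 6636 with DESeq2 and 7205 with limma-voom. The interaction of condition and arm (121 genes) was less stable, with 207 genes by DESeq2, 230 without the low count filter, 0 by edgeR without the replicate block (928 at an unadjusted p under 0.05) and 8 (without siGL2 TCHX replicate 1) to 237 (without siCTU2 T replicate 2) when libraries were left out. The cause was not tested. The seed match differences were -0.092 and -0.105 for siCTU2#1 and siCTU2#2 when counted anywhere in the transcript, and -0.229, -0.249 and 0.114 (siGL2, 26 genes) when an A opposite base 1 was also required. The difference by 3′ UTR length was -0.025 for genes with a mean CPM of at least 10. Of 131 named genes, 129 of them called, 36 lost the call in at least 1 alternative and 7 in one other than the 1.5-fold test (BAX, CCN2, CCNB1, DCT, ISG15, PMEL and STAT2), with no direction reversed. The median of 33 of 54 lists kept its sign in all 25 settings. The median of all genes moved by at most 0.013 with another scaling or filter. Members without any of the 3 guide seeds were counted as an alternative chosen after seeing the data. Depth limited genes such as PMEL, at 2.21 to 8.42 CPM, and with 3 replicates that may share cultures the p-values may be too small.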
